A study of Mus musculus with 16 samples.

Results

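The 7 GABA-A receptor subunit genes Gabra2, Gabra3, Gabra4, Gabra5, Gabrb1, Gabrb2 and Gabrd were followed across the hippocampus of High and Low Activity mice. They were chosen by symbol, and all 7 were found by their Ensembl identifiers among the 31960 genes of the count table. Gabra2 lies on chromosome 5 at 70957597 to 71095849, Gabra4 at 71569749 to 71658308 and Gabrb1 at 71658113 to 72149037 of the same chromosome (GRCm38). Gabra5 lies on chromosome 7 at 57407672 to 57510059, Gabrb2 on chromosome 11 at 42419757 to 42629028, Gabrd on chromosome 4 at 155384980 to 155398112 and Gabra3 on chromosome X at 72432681 to 72656848. The 16 libraries came from naive mice killed at postnatal day 70, with 4 High Activity females (libraries 1 to 4), 4 High Activity males (libraries 5 to 8), 4 Low Activity females (libraries 9 to 12) and 4 Low Activity males (libraries 13 to 16), and each library held the bilateral hippocampi of 1 mouse. Both strains descend from a cross of BALB/cJ and C57BL/6 mice that was selected in opposite directions for locomotion in an open field and then inbred, and the Low Activity line is taken as the more anxious of the pair. Each direction was represented by 1 inbred strain, H2 or L2, so a difference between strains takes in their whole genetic background, coat color included. Total counts ran from 20815456 to 28760896 per library.

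GABA-A receptors are chloride channels opened by GABA, the main inhibitory transmitter of the brain, and each is assembled from several subunits around a central pore. Alpha subunits set where a receptor sits and which benzodiazepine ligands it binds, beta subunits form the GABA site together with an alpha subunit, and the delta subunit replaces a gamma subunit in receptors outside synapses. In the hippocampus, receptors with the alpha5 subunit carry much of the tonic inhibition of pyramidal cells, receptors with alpha4 and delta do so in dentate granule cells, and alpha2 is found at inhibitory synapses of pyramidal cells, the axon initial segment included. Alpha4 and delta are also the extrasynaptic pair of thalamic relay neurons, and alpha3 marks the thalamic reticular nucleus and the monoamine nuclei.

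Promoter windows from 250 bases before to 50 bases after the annotated start were taken from RefSeq (GRCm38.p6) for 6 of the 7 genes. For Gabra5 and Gabrb2 1 window each is shown because these genes carried the strain differences described here. For Gabra4 and Gabrb1 1 window each is shown because the 2 genes lie head to head on opposite strands with overlapping 5′ ends. The RefSeq starts of Gabra4 and Gabrb1 are 387 bases apart, and the gene spans overlap by 196 bases in GENCODE M21. Each window runs 5′ to 3′ on the strand of its gene. Capitals mark the GC box GGGCGG or the TATA box TATAAA on either strand, which do not overlap each other in these windows. The cAMP response element TGACGTCA was searched too and was in none of the 10 windows of the 6 genes.
Gabrb2, chr11:42420190-42420489, plus strand: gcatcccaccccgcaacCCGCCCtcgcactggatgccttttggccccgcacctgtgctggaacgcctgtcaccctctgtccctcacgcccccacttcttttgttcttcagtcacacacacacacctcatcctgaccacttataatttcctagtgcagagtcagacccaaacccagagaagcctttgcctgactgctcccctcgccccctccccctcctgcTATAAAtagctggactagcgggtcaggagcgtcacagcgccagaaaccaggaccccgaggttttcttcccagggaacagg
Gabra5, chr7:57510010-57510309, minus strand: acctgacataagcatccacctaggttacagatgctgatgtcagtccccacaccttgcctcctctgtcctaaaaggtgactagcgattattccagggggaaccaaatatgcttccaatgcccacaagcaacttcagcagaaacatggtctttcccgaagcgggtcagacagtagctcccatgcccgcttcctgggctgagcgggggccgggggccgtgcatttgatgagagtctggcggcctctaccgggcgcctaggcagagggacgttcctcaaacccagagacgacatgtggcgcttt
Gabra4, chr5:71658259-71658558, minus strand: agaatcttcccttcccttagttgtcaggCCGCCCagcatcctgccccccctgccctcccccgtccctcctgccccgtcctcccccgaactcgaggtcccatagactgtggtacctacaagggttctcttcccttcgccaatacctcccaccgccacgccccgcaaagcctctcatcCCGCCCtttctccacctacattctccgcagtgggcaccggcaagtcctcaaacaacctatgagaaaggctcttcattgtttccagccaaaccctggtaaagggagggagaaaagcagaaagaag
Gabrb1, chr5:71657671-71657970, plus strand: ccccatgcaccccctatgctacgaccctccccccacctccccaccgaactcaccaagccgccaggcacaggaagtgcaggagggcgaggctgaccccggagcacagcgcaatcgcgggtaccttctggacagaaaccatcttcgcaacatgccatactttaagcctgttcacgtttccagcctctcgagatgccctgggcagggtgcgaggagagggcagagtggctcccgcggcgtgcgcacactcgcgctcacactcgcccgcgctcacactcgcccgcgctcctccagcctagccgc
In the Gabrb2 window shown, a GC box begins 233 bases before the start and the TATA box 30 bases before it. Gabrb2 windows 2 and 3, not shown, hold none of the 3 motifs and have 54.7% and 41% GC. A second Gabrb1 window, not shown either, holds none and has 50.3% GC. The Gabra4 window holds GC boxes 222 and 74 bases before the start. The windows of Gabra5 and Gabrb1 hold none of the 3 motifs. Of all 32851 RefSeq windows of this length, 35.7% hold the GC box, 13.6% the TATA box and 1.79% the cAMP response element. In the windows shown, GC content was 59% for Gabrb2, 56.7% for Gabra5, 58.7% for Gabra4 and 66% for Gabrb1, against a median of 52.7% over all windows. A match to these letters describes the sequence only.

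High Activity males 6 and 8 stood apart from the rest in a list of markers that holds none of the subunits. A list of 10 markers of the thalamus and habenula, which border the hippocampus, summed to 516 and 328 CPM (counts scaled to the library size) in these 2 libraries, against 147 and 98.9 CPM in High Activity males 5 and 7. Low Activity males 14 and 16 were next, at 273 and 221 CPM, while Low Activity males 13 and 15 were at 99.8 and 109 CPM. The sum was 104 to 185 CPM in High Activity females and 96.5 to 109 CPM in Low Activity females. For each of the 10 markers the highest library was 6 or 8, and both were above libraries 5 and 7. Only 3 of the 10 had libraries 6, 8, 14 and 16 as the 4 highest. Gpr151, which marks the habenula, was at 12.3 and 10.9 CPM in libraries 6 and 8 and at 0.222 to 2.50 CPM in the other 14. In males 14 and 16 it was at 0.472 and 0.810 CPM, inside that range. None of the 10 markers was at 0 in any library. For the mean of the sexes 4 of the 10 passed edgeR's quasi-likelihood test as higher in High Activity mice, where 5.46% of all genes did. In males 4 also passed as higher (2.78% of all genes) and in females 0 (3.7%), so the markers were not independent of strain. The labelled tissue was checked with dentate granule cell markers such as Prox1 (mean 106.7 CPM) and CA1 markers such as Fibcd1 (123 CPM), which were present in every library, while cerebellar granule cell markers summed to at most 2.42 CPM. In whole-tissue RNA, fewer cells of a type and less RNA per cell cannot be told apart.

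Compared per length of exon, Gabra5 was the most abundant of the 7 messages and Gabrd the least. The mean over the 16 libraries was 54.2 CPM per kilobase for Gabra5 (range 42.2 to 65.5) and 31.1 for Gabra2 (27.3 to 35.1). Gabra4 followed at 19.4 (16.1 to 24.9) and Gabrb2 at 16.3 (13.9 to 21.2). The libraries of Gabra5 lay above those of Gabra2, and those of Gabra2 above those of Gabra4, with no overlap, whereas Gabra4 and Gabrb2 overlapped. The 3 lowest genes overlapped one another, with 12.5 CPM per kilobase for Gabra3 (8.72 to 18.7), 12.04 for Gabrb1 (9.55 to 14.4) and 10.5 for Gabrd (6.85 to 14.7). Gabra5 thus held 34.7% of the summed level per length of the 7 genes and Gabrd 6.74%. The levels rest on the length used, and Gabrb1 has a union of exons of 13838 bases and Gabrd one of 2875 bases. With the longest transcript as length the shares moved, but the order of the 7 means was the same.

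**Figure D1:**
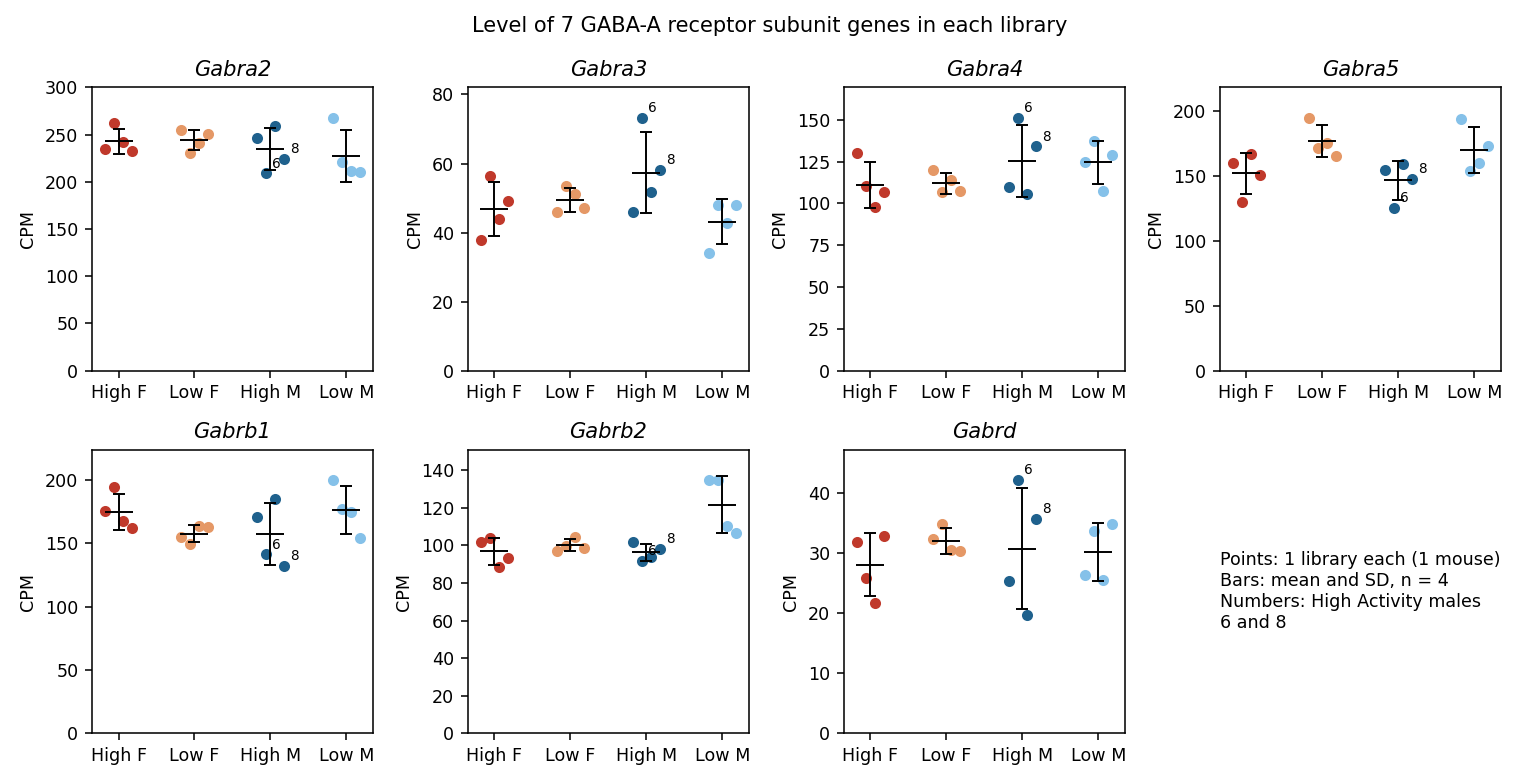
Level of each of the 7 subunit genes in CPM (vertical axes, each from 0), with 1 point per library for the High and Low Activity females (F) and males (M) and bars for the mean and SD of 4 libraries. Gabrb2 is the only panel in which the 4 High Activity males (91.8 to 102 CPM) all lie below the 4 Low Activity males (107 to 135 CPM). High Activity males 6 and 8 are numbered.

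For the strain difference within each sex, the question was which subunits were up- or downregulated in High Activity mice and whether females and males differed in this. In females, none of the 7 genes passed edgeR's quasi-likelihood test at an adjusted p of 0.05, where 7.26% of all genes did. Of the 7, 1 (Gabra5) had an unadjusted p under 0.05 in edgeR, as did 5838 of the 31960 genes, and DESeq2 and limma-voom called 0 as well. In males, 2 of the 7 passed against 6.04% of all genes, Gabra3 upregulated and Gabrb2 downregulated in High Activity mice. For the mean of the sexes 2 passed against 11.4% of all genes, Gabra5 and Gabrb2, both downregulated. These 2 were also the genes that passed the joint test of any strain effect, which called 10.3% of all genes. Gabra5 lost that joint call with filterByExpr, with upper-quartile factors, where Gabra3 passed in its place, and with limma-voom, while Gabrb2 kept it in each. Gabra5 also lost it without library 2, 4, 9, 11 or 13. The same held with the summed thalamus and habenula markers as a model term, a fit added after the data were seen. Gabrb2 kept the joint call in these fits too. The shares above are over all 31960 genes, those with few counts included. With filterByExpr, which kept 17805 genes, 2740 passed in females, 2211 in males, 3925 for the mean and 3645 for the joint test. Of the 7 members 0, 1, 2 and 1 passed there. The median log2 fold change of the 7 genes was -0.05 in females, 0.01 in males and -0.01 for the mean, beside medians of 0, 0 and 0.01 over all genes tested.

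**Figure D2:**
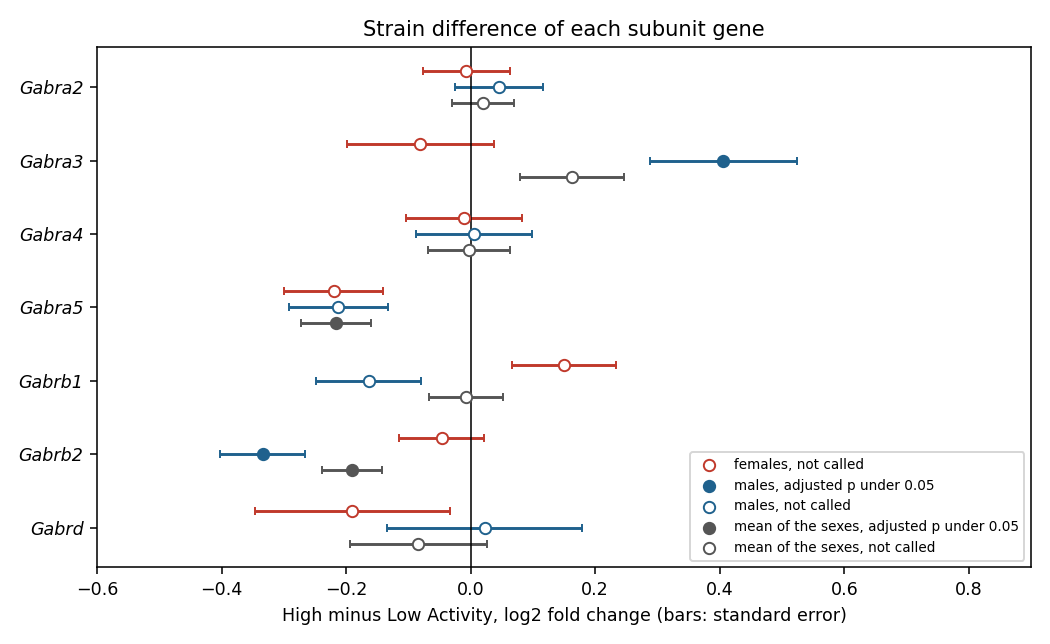
High minus Low Activity log2 fold change (horizontal axis) of the 7 subunit genes in females, males and the mean of the sexes, with bars for the standard error and filled points for an adjusted p under 0.05 in edgeR's quasi-likelihood test. Gabra5 lies at -0.22, -0.21 and -0.22, whereas Gabrb2 lies at -0.05 in females and -0.33 in males.

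Gabra5, which encodes the alpha5 subunit of extrasynaptic receptors, was lower in High Activity mice for the mean of the sexes. Its level was 159.8, 130.0, 167 and 150.4 CPM in High Activity females 1 to 4 and 195, 171, 175 and 166 CPM in Low Activity females 9 to 12. In males it was 155, 125, 159 and 147 CPM in High Activity libraries 5 to 8 and 194, 154, 159.5 and 173 CPM in Low Activity libraries 13 to 16. In females only the highest High Activity library reached into the Low Activity range, and in males the groups overlapped between 154 and 159 CPM. Group means were 152 ± 16.1 and 177 ± 12.7 CPM in females and 147 ± 14.9 and 170.0 ± 17.8 CPM in males (SD, n = 4 each). The log2 fold change was -0.22 for the mean of the sexes (SE 0.06, adjusted p = 0.0101, by edgeR's quasi-likelihood F-test after Benjamini-Hochberg correction over all genes). Within a sex it was -0.22 in females (SE 0.08, adjusted p = 0.101) and -0.21 in males (SE 0.08, adjusted p = 0.133), neither past the threshold in edgeR. The call for the mean held in all 23 alternative settings, with edgeR, DESeq2 and limma-voom adjusted p-values of 0.00279 to 0.0354. The female difference passed with each sex fitted alone (adjusted p = 0.0248) and without composition factors (0.0416), within a range of 0.0248 to 0.383 over the 24 alternative settings of edgeR, DESeq2 or limma-voom.

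Markers of the choroid plexus, the secretory epithelium in the ventricle beside the hippocampus, moved the other way. The 10 choroid markers summed to 1025 to 4566 CPM in High Activity females and 136 to 1734 CPM in Low Activity females, and to 2344 to 5402 and 748 to 3660 CPM in High and Low Activity males. None of the 10 was at 0 in any library. For the mean of the sexes 3 of the 10 passed edgeR's test, all higher in High Activity mice, where 5.46% of all genes passed as higher. Across the 16 libraries log2 Gabra5 ran against the log2 of this sum with Pearson's r = -0.66 (permutation p = 0.00585) and Spearman's rho = -0.67, and r = -0.54 without the 2 libraries farthest from its median. The permutation mixed the strains and sexes, so the strain difference enters its p-value, which is unadjusted. Within the 8 High Activity libraries r was -0.32 and within the 8 Low Activity libraries -0.64. The part of these markers in the Gabra5 difference was not tested.

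Gabrb2 encodes the beta2 subunit, which is common in synaptic receptors. In males it was at 102, 91.8, 93.9 and 98.2 CPM in High Activity libraries 5 to 8 and at 135, 135, 111 and 107 CPM in Low Activity libraries 13 to 16. Every High Activity male was below every Low Activity male, a pattern found for 5.12% of all genes and for Gabrb2 alone among the 7. In females it was at 102, 104, 88.5 and 93.2 CPM in High Activity libraries and 97.2, 99.8, 105 and 98.5 CPM in Low Activity libraries, which overlapped. The mean was 122 ± 15.1 CPM in Low Activity males, against 96.4 ± 4.47 CPM in High Activity males, 100.05 ± 3.23 CPM in Low Activity females and 96.9 ± 7.29 CPM in High Activity females (SD, n = 4 each). The male log2 fold change was -0.33 (SE 0.07, adjusted p = 0.00202, edgeR's quasi-likelihood test), and that in females was -0.05 (SE 0.07, adjusted p = 0.784). Over the 24 alternative settings the male value stayed between -0.39 and -0.28 with edgeR, DESeq2 or limma-voom adjusted p-values of 0.000263 to 0.0161, so no alternative ended the call. For the mean of the sexes the log2 fold change was -0.19 (SE 0.05, adjusted p = 0.00853 in edgeR), and that call held in all 23 alternatives as well.

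The sex difference of Gabrb2 was in Low Activity mice. Low Activity males were above Low Activity females by 0.28 on the log2 scale (SE 0.07), the lowest male library being at 107 CPM and the highest female library at 105 CPM, with an unadjusted p of 0.000348 and an adjusted p of 0.0786 in edgeR's quasi-likelihood test, where 0.235% of all genes passed. DESeq2 (adjusted p = 0.0328) and edgeR on Low Activity mice alone (0.0289) called it, within a range of 0.0222 to 0.246 over the 24 alternatives. In High Activity mice the male minus female difference was -0.01 (SE 0.07), and 0.0344% of all genes passed. The strain by sex interaction of Gabrb2 was 0.29 (female minus male of the strain difference, SE 0.10), with an unadjusted p of 0.00634 and an adjusted p of 0.282 in edgeR. None of the 7 genes passed for the interaction in edgeR, as with 0% of all genes, and DESeq2 and limma-voom called 0 of the 7 as well. In each of the 3 tools, 3 of the 7 had an unadjusted p under 0.05. Over all 31960 genes 3208 did so in edgeR, 2712 in DESeq2 and 3192 in limma-voom. With filterByExpr it was 2619 of 17805 genes in edgeR. DESeq2 called 154 of the 31960 genes for the interaction, none of them among the 7, and limma-voom 0. The sex dependence of Gabrb2 is therefore a difference of the listed values that did not pass the correction.

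Gabra3, the X-linked gene of the alpha3 subunit, was higher in High Activity males. It was at 46.1, 73.3, 51.8 and 58.2 CPM in High Activity males 5 to 8 and at 34.2, 47.98, 42.8 and 47.8 CPM in Low Activity males 13 to 16. The highest value of all 16 libraries was that of male 6 and the lowest that of male 13, and male 5 lay inside the Low Activity range. In females the levels were 37.8, 56.3, 43.9 and 49.0 CPM in High Activity libraries and 46.0, 53.6, 51.1 and 47.2 CPM in Low Activity libraries, with the Low Activity values inside the High Activity range. High minus Low Activity, Gabra3 differed by 0.41 on the log2 scale in males (SE 0.12, adjusted p = 0.0377) and by -0.08 in females (SE 0.12, adjusted p = 0.780) by edgeR's quasi-likelihood test. The interaction was -0.49 (SE 0.17, unadjusted p = 0.00733, adjusted p = 0.297 in edgeR). Male minus female was 0.29 in High Activity mice (SE 0.12, adjusted p = 0.817) and -0.20 in Low Activity mice (SE 0.12, adjusted p = 0.597), neither past the threshold in edgeR.

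The male call of Gabra3 depended on single libraries and on the settings. Without High Activity males 6 and 8, an alternative added after the data were seen, the male log2 fold change was 0.18 (SE 0.11, edgeR adjusted p = 0.523). Leaving out a single library ended the call for male 6 (0.27, edgeR adjusted p = 0.192), male 8 (0.40, 0.0762), male 13 (0.31, 0.157) and male 15 (0.40, 0.0750), and with all libraries kept it ended with filterByExpr (adjusted p = 0.0604), without composition factors (0.0536), with each sex alone (0.0747) and in limma-voom (0.125). Over all 24 alternative settings the adjusted p from edgeR, DESeq2 or limma-voom ran from 0.00664 to 0.192. Gabra3 also ran with the cortex markers (r = 0.66, rho = 0.69, and r = 0.60 without the 2 libraries farthest from the median) and against the dentate granule cell markers. The 6 dentate markers summed to 303 to 373 CPM in High Activity males and 343 to 425 CPM in Low Activity males, with library 13 the highest and library 6 the lowest of all 16, and none of the 6 was at 0. In High and Low Activity females the sum was 309 to 415 and 319 to 387 CPM. For the mean of the sexes 5 of the 6 passed edgeR's test, against 11.4% of all genes, 1 higher and 4 lower in High Activity mice. The sum thus joins markers that differed between the strains in both directions. Pearson's r of log2 Gabra3 with the log2 of the dentate sum was -0.79 (n = 16, permutation p = 0.00013) and Spearman's rho -0.68, with r = -0.58 without the 2 libraries farthest from the median, r = -0.73 within High and r = -0.86 within Low Activity mice. Gabrb2 ran with the dentate sum at r = 0.55 (permutation p = 0.0252, rho = 0.62), and r = 0.42 without the same 2 libraries. Within High and Low Activity mice its r was 0.66 and 0.52. These relations were picked from 42 of the members with 6 marker lists. Their p-values are unadjusted, and the permutation mixed the strains and sexes. The part of these marker lists in the male differences of Gabra3 and Gabrb2 was not tested beyond these values.

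Gabra4 and Gabrd encode the alpha4 and delta subunits, which form extrasynaptic receptors together. Gabra4 was at 130.2, 110.2, 97.7 and 107 CPM in High Activity females 1 to 4 and 119.9, 107, 114 and 108 CPM in Low Activity females 9 to 12. In High Activity males 5 to 8 it was at 109.7, 151, 105 and 134 CPM, and in Low Activity males 13 to 16 at 124, 137, 107 and 129 CPM. The strain groups overlapped in both sexes, and males 6 and 8 were the high pair of their group. The strain difference of Gabra4 was -0.01 on the log2 scale in females and 0.01 in males (SE 0.09 each, adjusted p = 1 in both by edgeR's quasi-likelihood test).

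Gabrd had its high and low males in the same libraries, at a lower level. It was at 25.4, 42.2, 19.7 and 35.7 CPM in High Activity males 5 to 8 and at 26.4, 33.8, 25.6 and 34.9 CPM in Low Activity males 13 to 16. Males 6 and 8 were above 5 and 7 in the High Activity strain, and 14 and 16 above 13 and 15 in the Low Activity strain. In females it was at 32.0, 25.9, 21.8 and 32.8 CPM in High Activity and 32.3, 34.9, 30.6 and 30.3 CPM in Low Activity mice, again with overlap. Its strain difference on the log2 scale was -0.19 in females (SE 0.16, adjusted p = 0.580), 0.02 in males (SE 0.16) and -0.08 for the mean (SE 0.11, adjusted p = 0.790 in edgeR). Fits added after the data were seen gave Gabrd another result, though the marker term used in 1 of them was itself not independent of strain. Without males 6 and 8 its mean difference was -0.30 (SE 0.08, edgeR adjusted p = 0.0107), and with the summed thalamus and habenula markers as a term of the model it was -0.29 (SE 0.06, edgeR adjusted p = 0.00199), while without males 6, 8, 14 and 16 it was -0.20 (SE 0.07, edgeR adjusted p = 0.0742). In females the fit with the marker term gave -0.36 (SE 0.08, edgeR adjusted p = 0.00451), past the threshold. Over the 23 alternative settings the mean difference lay between -0.18 and -0.0013 with edgeR, DESeq2 or limma-voom adjusted p-values of 0.297 to 1.

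By Pearson's r, Gabra4 followed the thalamus and habenula markers most closely of the 7 genes, whereas by Spearman's rho Gabra5 and Gabra2 were farther from 0. Over the 16 libraries, log2 Gabra4 and the log2 of the marker sum had Pearson's r = 0.84 (permutation p = 9e-05) and Spearman's rho = 0.65 (permutation p = 0.00785), and r was 0.70 without males 6 and 8, 0.95 within High and 0.76 within Low Activity mice. Among 10242 genes with a mean of at least 10 CPM, 0.771% had an r as far from 0 as Gabra4. The share was 5.90% for Gabrd, 6.07% for Gabra5, 6.41% for Gabra2, 11.3% for Gabra3, 18.1% for Gabrb1 and 96.2% for Gabrb2, so r values of the size seen for these 6 were found for many other genes. For Gabrd r was 0.65 (permutation p = 0.00655, rho = 0.53), and 0.43 without males 6 and 8. Gabra2 and Gabra5 ran the other way at r = -0.64 (permutation p = 0.00586, rho = -0.66) and r = -0.65 (permutation p = 0.00711, rho = -0.69), with -0.52 and -0.39 without males 6 and 8. For Gabra3 r was 0.57 (permutation p = 0.0243, rho = 0.37) and was 0.03 without males 6 and 8, so that it rested on these 2 libraries. For Gabrb2 r was 0.02 (permutation p = 0.944, rho = 0.10), and for Gabrb1 it was -0.49 (permutation p = 0.0531, rho = -0.26) and 0.04 without males 6 and 8. These are 7 of 42 relations of the members with 6 marker lists, and the p-values are unadjusted.

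**Figure D3:**
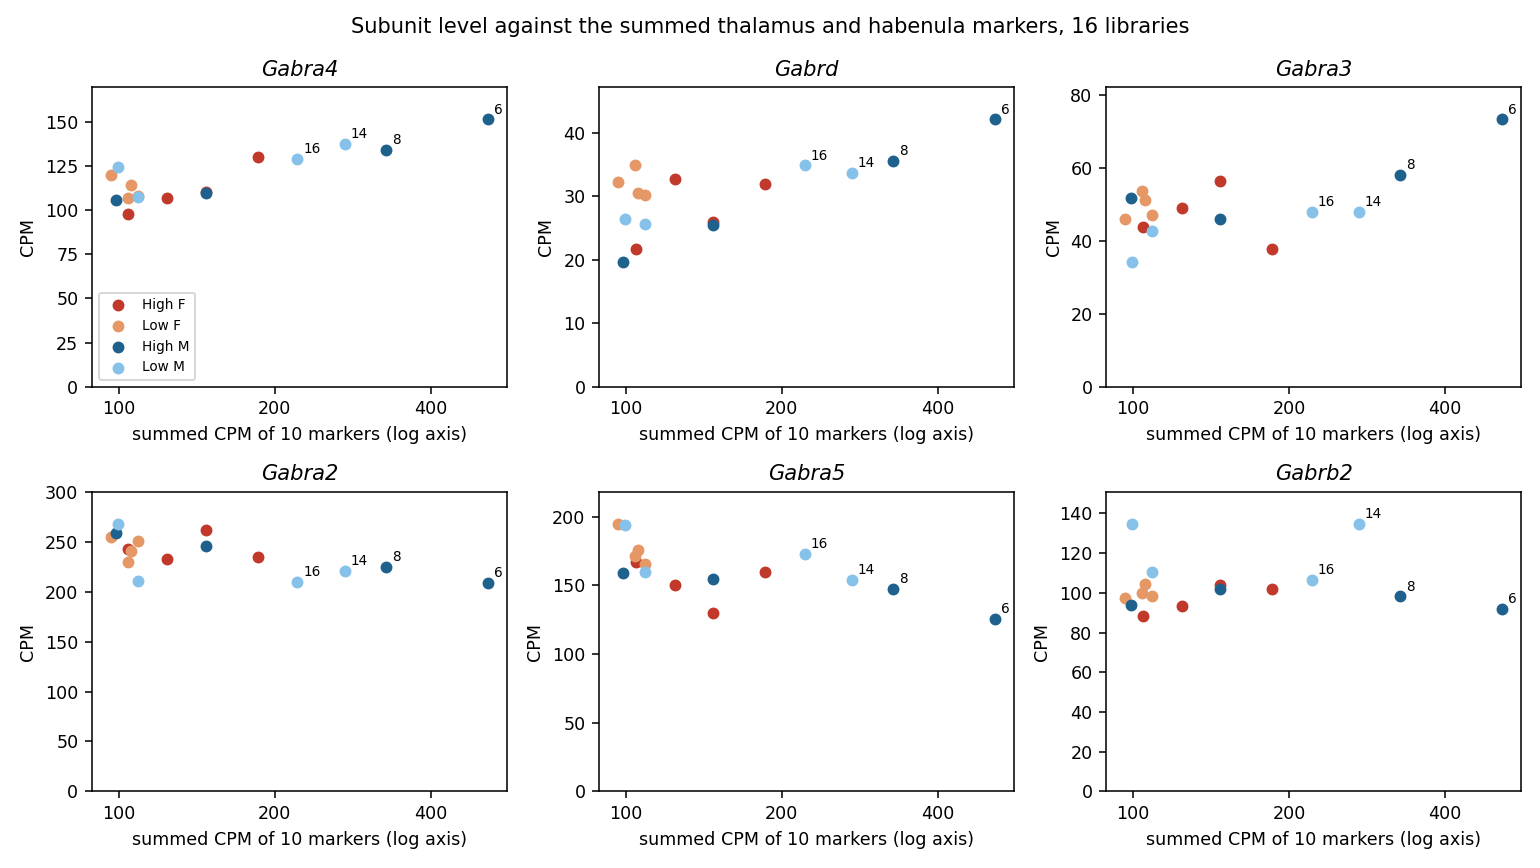
Level in CPM (vertical axes, from 0) of 6 subunit genes against the summed CPM of 10 thalamus and habenula markers (horizontal axes, logarithmic), with 1 point per library colored by group. Libraries 6, 8, 14 and 16, at 516, 328, 273 and 221 CPM of the marker sum, are numbered and hold 4 of the 5 highest Gabra4 values.

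The strain differences were set side by side with and without these libraries. For Gabrb2 the male log2 fold change was -0.31 without males 6 and 8 (edgeR adjusted p = 0.0136), -0.32 without males 6, 8, 14 and 16 (0.00470) and -0.34 with the marker sum as a model term (0.00150). For Gabra5 the mean of the sexes was -0.17 (edgeR adjusted p = 0.0314), -0.20 (0.00395) and -0.16 (0.0257) in the same 3 fits, each still past the threshold. Its joint call of any strain effect was lost with the marker term. Its male value moved from -0.21 to -0.12 without males 6 and 8 (edgeR adjusted p = 0.621) and to -0.16 with the marker term (0.216). For Gabra3 the male value was 0.18 without 2 males, 0.35 without 4 (edgeR adjusted p = 0.0374) and 0.30 with the marker term (0.0636). All 3 fits were added after the data were seen.

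**Figure D4:**
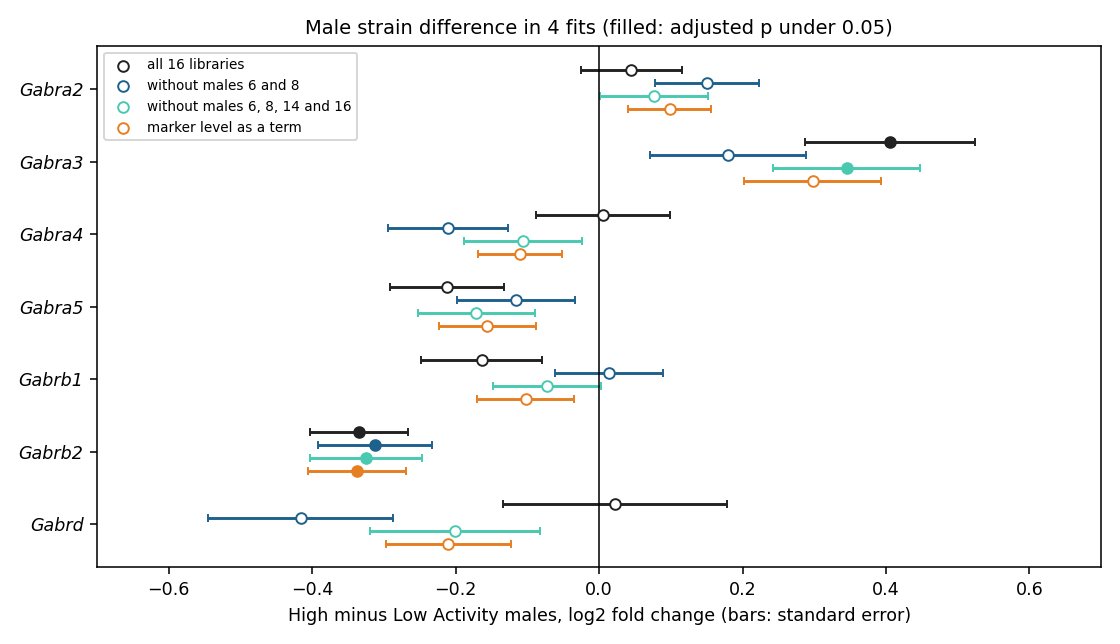
High minus Low Activity log2 fold change in males (horizontal axis, bars for the standard error) of the 7 subunit genes in the fit of all 16 libraries and in 3 further fits, with filled points for an adjusted p under 0.05 in edgeR's quasi-likelihood test. Gabrb2 stays between -0.34 and -0.31, whereas Gabrd moves from 0.02 to -0.42 without males 6 and 8.

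Gabra2 and Gabrb1 completed the set, and neither passed a test of strain in the fit of all 16 libraries. Gabra2, for the alpha2 subunit, was at 235, 262, 242 and 233 CPM in High Activity females, 255, 230.2, 241 and 251 CPM in Low Activity females, 246, 209, 259 and 225 CPM in High Activity males and 268, 221, 211 and 210.2 CPM in Low Activity males. The groups overlapped throughout, and its log2 fold change for the mean of the sexes was 0.02 (SE 0.05), with an adjusted p of 0.997 in edgeR. Gabrb1, for the beta1 subunit, was at 176, 195, 167 and 162 CPM in High Activity females and 155, 149, 163 and 163 CPM in Low Activity females. In males it was at 171, 141, 185 and 132 CPM in High Activity and 199.9, 177, 175 and 154 CPM in Low Activity libraries. On the scale of CPM it was higher on average in High Activity females and lower in High Activity males, with log2 fold changes of 0.15 and -0.16 (SE 0.08 each, adjusted p = 0.367 and 0.338 by edgeR's quasi-likelihood test) and an interaction of 0.31 (SE 0.12, unadjusted p = 0.0139, adjusted p = 0.355). With an offset for gene length and GC content the values were -0.09 in females and -0.11 in males (edgeR adjusted p = 0.341 and 0.229), both below 0, and the interaction was 0.02. Without males 6 and 8 the male value was 0.01 (edgeR adjusted p = 1), and with the thalamus and habenula marker term the female value was 0.21 (SE 0.07, edgeR adjusted p = 0.0433), past the threshold. Males 6 and 8 were the lowest 2 of all 16 libraries for Gabrb1, at 141 and 132 CPM, and the highest of their group for Gabra4, although the 2 genes start next to each other. Their exons overlap by 46 bases on opposite strands, and whether the counting used strand is not given in the sources used here.

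Most subunit genes lie in clusters, and 9 further subunit genes of the count table were set beside the 7. Of these 9, 1 passed as higher in High Activity mice and 0 as lower for the mean of the sexes in edgeR's quasi-likelihood test (5.46% and 5.89% of all genes passed as higher and lower). The gene that passed was Gabrq, for the theta subunit on chromosome X, at a mean level of only 0.435 CPM (1.51 on the log2 scale, SE 0.42, adjusted p = 0.0158). Gabre, for the epsilon subunit of the same chromosome, was at a mean of 0.330 CPM and did not pass (0.87, SE 0.35, adjusted p = 0.124 in edgeR).

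Gabrg3, for the gamma3 subunit, lies next to Gabra5 on chromosome 7. It was at 15.6 to 19.1 CPM in High and 17.9 to 21.3 CPM in Low Activity females, and at 16.0 to 19.8 and 18.2 to 20.7 CPM in males. The strains overlapped in both sexes, and the mean log2 fold change was -0.16 (SE 0.06, adjusted p = 0.102 in edgeR). On chromosome 5, Gabrg1, for the gamma1 subunit, was at 20.7 to 26.7 and 19.3 to 22.4 CPM in High and Low Activity females and at 20.5 to 27.3 and 16.7 to 24.2 CPM in males. Its mean difference was 0.17 (SE 0.08, adjusted p = 0.172 in edgeR), and Gabra2, Gabra4 and Gabrb1 of the same stretch did not pass for the mean of the sexes either. The exons of Gabra5 share 148 bases with the antisense gene Gm9962, at a mean of 1.2 CPM.

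**Figure D5:**
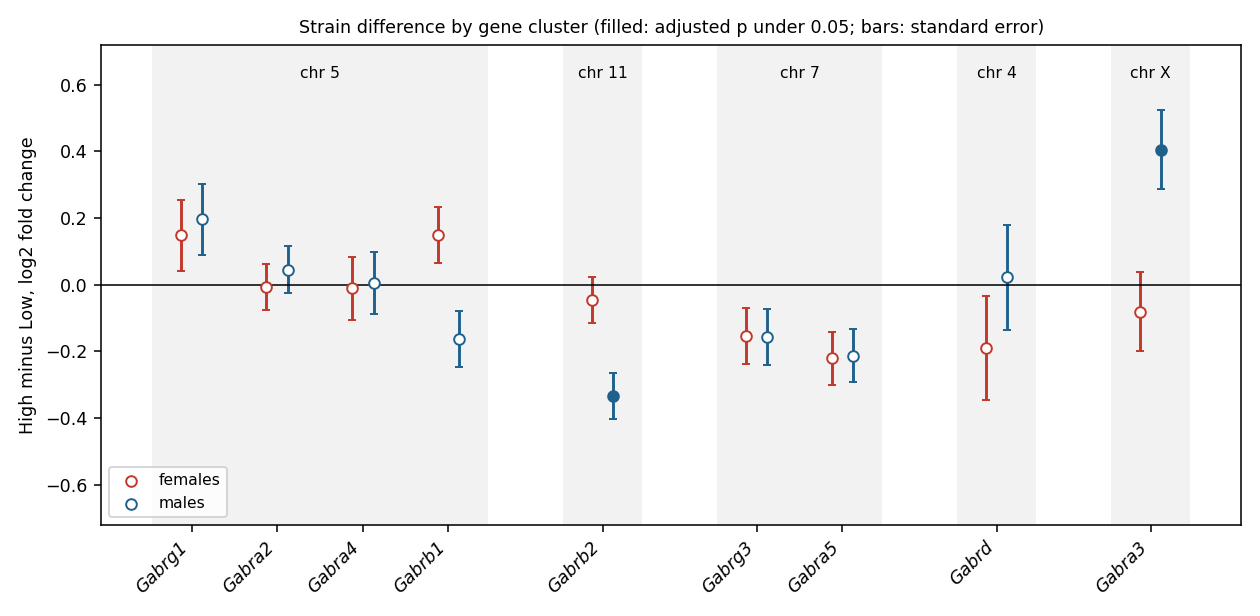
High minus Low Activity log2 fold change (vertical axis, bars for the standard error) in females and males of 9 subunit genes grouped by chromosome, with filled points for an adjusted p under 0.05 in edgeR's quasi-likelihood test. Gabra5 (-0.22 and -0.21) and its neighbour Gabrg3 lie below 0 in both sexes, while Gabra2 and Gabra4 lie within 0.05 of 0.

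The nearest genes outside the subunit clusters did not pass for the mean of the sexes, with 1 exception, where 11.4% of all genes passed. These genes are too few to show whether their share differs from that. Next to Gabrb2, Atp10b (-0.03, SE 0.18) and Slu7 (0.03, SE 0.04) did not pass edgeR's test, and around Gabra5 neither did Herc2 (0.16, SE 0.06, adjusted p = 0.127) nor Atp10a (0.28, SE 0.10, adjusted p = 0.0605). Commd8, next to Gabrb1 and of a family that acts in endosomal sorting, was lower (-0.14, SE 0.04, adjusted p = 0.00958 in edgeR). Vma21, Prrg3, Cetn2 and Nsdhl beside Gabra3, Faap20, Prkcz, Cfap74 and Gnb1 beside Gabrd, and Gnpda2 and Nfxl1 on chromosome 5 did not pass.

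The other genes of the GABA pathway were taken list by list for the mean of the sexes. Of 20 genes that anchor or traffic the receptors, 1 was higher and 1 lower in High Activity mice, close to the 5.46% and 5.89% of all genes that were higher and lower, so the counts single out neither this list nor its genes. These were Rdx (0.14, SE 0.04, adjusted p = 0.0151), whose product radixin holds alpha5 receptors outside synapses, and Gabarapl1 (-0.14, SE 0.03, adjusted p = 0.00316), a relative of the GABA-A receptor associated protein, by edgeR's quasi-likelihood test. Rdx was at 0.26 in females (adjusted p = 0.00204) and 0.02 in males (0.947), and Gabarapl1 at -0.18 (0.0120) and -0.10 (0.233, all from edgeR). The trafficking genes Shisa7 (0.13, SE 0.05, adjusted p = 0.135) and Hap1 (0.15, SE 0.08, adjusted p = 0.248) did not pass in edgeR. Of 8 genes for making, loading, taking up and breaking down GABA, 1 was higher and 1 lower. The GABA transporter gene Slc6a11 (0.27, SE 0.08, adjusted p = 0.0227) was higher, and Gad1, for the enzyme that makes GABA, was lower (-0.15, SE 0.04, adjusted p = 0.0190), while Gad2 was at -0.17 (SE 0.06, adjusted p = 0.0572) and Slc32a1, which loads GABA into vesicles, at -0.11 (SE 0.05, adjusted p = 0.263, all from edgeR). The median log2 fold change was -0.01 over the 20 genes and -0.04 over the 8, beside 0.01 over all genes tested.

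Of another 8 genes that set the chloride and bicarbonate gradient, 2 were higher and 0 lower. Slc12a2, which brings chloride into cells, was at 0.28 (SE 0.07, adjusted p = 0.00546) and its activating kinase Stk39 at 0.17 (SE 0.05, adjusted p = 0.0162 in edgeR), whereas Clcn2 (-0.11, adjusted p = 0.0517) and Car2 (0.18, adjusted p = 0.0546) did not pass. Slc12a2 was at 0.45 in females (edgeR adjusted p = 0.00231) and 0.10 in males (0.606). In males alone 1 of the 8 passed, the kinase Wnk1 (-0.25, SE 0.07, adjusted p = 0.0319 in edgeR), named after its value was seen, and in females it was at 0.20 (adjusted p = 0.0894). Of the 5 genes of the GABA-B receptor and its auxiliary subunits, Gabbr1 was higher (0.17, SE 0.04, adjusted p = 0.00502) and Kctd16 lower (-0.33, SE 0.08, adjusted p = 0.00428 in edgeR), while Kctd12 (-0.13, adjusted p = 0.192) and Kctd8 (0.10, adjusted p = 0.815) did not pass. Kctd16 was at -0.02 in females and -0.65 in males (edgeR adjusted p = 1 and 0.000270), and Gabbr1 at 0.12 and 0.22 (0.240 and 0.0203). Of the 6 genes for neurosteroids and the endogenous benzodiazepine site ligand, 2 were higher. Dbi, whose product binds the benzodiazepine site, was at 134 to 164 CPM in High and 102 to 123 CPM in Low Activity females, and at 151 to 173 and 87.3 to 119 CPM in males, with no overlap of the strains, as for 3.27% of all genes (mean log2 fold change 0.53, SE 0.05, adjusted p = 5.27e-08 in edgeR). Akr1c14, an enzyme that makes neurosteroids which act on receptors with the delta subunit, was at 2.51 to 4.80 and 0.855 to 1.65 CPM in females and at 2.07 to 3.55 and 0.398 to 1.33 CPM in males (mean log2 fold change 1.65, SE 0.21, adjusted p = 1.91e-06 in edgeR). Cyp11a1 (-0.54, SE 0.18, adjusted p = 0.0556) and Tspo (0.24, SE 0.12, adjusted p = 0.248) of the same list did not pass in edgeR. The medians of the 8, 5 and 6 genes were 0.01, -0.03 and 0.16. None of the strain by sex interactions of Rdx, Slc12a2 and Kctd16 passed (edgeR adjusted p = 0.240, 0.359 and 0.137). In females alone, 1 gene was higher and 1 lower among the 20 for anchoring, 1 higher among the 8 for the chloride gradient and 2 higher among the 6 (3.7% and 3.55% of all genes passed as higher and lower). In males alone, 1 was lower among the 8 for the chloride gradient, 1 higher and 1 lower among the 5, and 2 higher among the 6 (2.78% and 3.25%).

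Genes whose log2 levels ran most like each subunit over the 16 libraries were sought among 9988 protein-coding genes with a mean of at least 10 CPM. The points share libraries, strain, sex and dissection, and the correlations are a description. Gabra5 ran with Fam131a (Pearson's r = 0.96), Chn1 (0.95) and Hpca (0.94), the last for hippocalcin, a calcium sensor of hippocampal neurons. Gabrb1 ran with Dlg5 (0.96), March6 (0.94) and Cpd (0.94), and Gabra4 with Shisal1 (0.93), Adarb1 (0.92) and Cpne9 (0.91), where Adarb1 encodes an RNA editing enzyme. Gabrd ran with Diras1 (0.90), Rgs6 (0.90) and Eef1a2 (0.89), the last a neuronal translation elongation factor, and Gabrb2 with Fam168a (0.88), Zfyve9 (0.86) and Tiam1 (0.85). Gabra3 ran with Rcn2 (0.88), Camk2n2 (0.87) and Dusp26 (0.87), and Gabra2 with Nos1 (0.87), Celf5 (0.84) and St6galnac5 (0.84), where Nos1 encodes the neuronal nitric oxide synthase. No other subunit gene was among these.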

How the data were processed

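Poly-A RNA from the bilateral hippocampi of 16 mice was sequenced as paired-end reads from libraries labelled as strand-specific. After trimming and HISAT2 alignment to mm10, the authors used RSEM with an Ensembl GRCm38 annotation to obtain expected counts. These expected counts were deposited as whole numbers, without normalization, for 31960 genes, each above 0 in at least 1 library, and the authors' own tests used DESeq2 1.30.1. Symbols and positions were joined from GENCODE M21, where 61 identifiers were missing.

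CPM were scaled with TMM factors (edgeR 4.0.16, R 4.3.3). Every gene was fitted with strain, sex and the strain by sex term over all 16 libraries and tested with quasi-likelihood F-tests and Benjamini-Hochberg adjustment over the 31960 genes, and an adjusted p under 0.05 was called. Standard errors were derived from the F statistic. Per the methods each library is a biological replicate. All 7 members passed filterByExpr, which kept 17805 genes, and the biological coefficient of variation was 10.6%. Alternatives were filterByExpr, RLE, upper-quartile or no composition factors, DESeq2 1.42.0 without independent filtering, limma-voom 3.58.1, an offset for length and GC content (spline, 5 degrees of freedom), each sex or strain alone, and fits without each library. The fits without males 6 and 8, without males 6, 8, 14 and 16, and with the marker sum as a term were added after the data were seen. Correlations used 100000 permutations, two-sided, over all 16 libraries without regard to strain or sex, and their p-values are unadjusted. The tests were tested on simulated data. Named genes were all members, up to 4 genes of each pathway list with the smallest p for the mean of the sexes, the 3 genes most like each member, and protein-coding neighbours (2 a side, mean of at least 1 CPM). A few genes of these lists are not reported here. The members and lists were chosen with earlier results of these data known.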

Additional observations from a re-analysis of the deposited data

How the results depend on the processing

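The downregulation of Gabra5 and Gabrb2 for the mean of the sexes and of Gabrb2 in males kept direction and call under every other filter, scaling and tool and without each single library. The number of members called in females (0) was 1 without composition factors, with each sex alone, without males 6 and 8 and without males 6, 8, 14 and 16, 2 with the marker term, and 0 to 0 without single libraries. In males (2) it was 1 with filterByExpr, no composition factors, limma-voom, each sex alone, without males 6 and 8 and with the marker term, and 1 to 2 without single libraries. For any strain effect (2) it was 1 with filterByExpr and limma-voom, 3 with the length and GC offset, without males 6 and 8 and without 4 males, 4 with the marker term, and 1 to 4 without single libraries (4 without library 7, 1 without 4, 9, 11 or 13). For male minus female in Low Activity mice (0) it was 1 with DESeq2, each strain alone and without males 6 and 8, 3 without 4 males and with the marker term, and 0 to 1 without single libraries (1 without library 6 or 16, Gabrb2). Calls over all 31960 genes changed too. For this comparison 75 became 339 with DESeq2, 521 with each strain alone and 523 without males 6 and 8. They were 1085 without 4 males and 1239 with the marker term. In females 2319 became 3145 with each sex alone, 2955 without males 6 and 8 and 3423 with the marker term. In males 1930 became 1354 without males 6 and 8. For any strain effect 3293 became 4219 with the marker term. The fits without several males and with the marker term were added after the data were seen. Some values changed sign, most of them near 0 but not those of Gabrb1 in females and males and of Gabrd for the interaction (0.15, -0.16 and -0.21 in the fit of all libraries), and the cause was not tested. With filterByExpr these were Gabra2 in females (0.0011) and, for the mean, Gabra4 (0.0073) and Gabrb1 (0.0031), and with upper-quartile factors the same 3 (0.00055, 0.0051 and 0.0020). Gabra4 for the mean was also 0.0038 with RLE factors and 0.0042 with DESeq2. With limma-voom the male values of Gabra4 and Gabrd were -0.013 and -0.039. With the length and GC offset Gabra2 for the mean was -0.028, Gabrb1 in females -0.092, and Gabrb2 male minus female in High Activity mice 0.0052. Without males 6 and 8 the values were -0.21 (Gabra4, males), 0.013 (Gabrb1, males), 0.082 (Gabrb1, mean), 0.015 (Gabrb2, male minus female, High Activity), -0.42 (Gabrd, males) and 0.23 (Gabrd, interaction). Without males 6, 8, 14 and 16 they were -0.11 (Gabra4, males), 0.039 (Gabrb1, mean), 0.015 (Gabrb2, male minus female, High Activity), -0.20 (Gabrd, males) and 0.011 (Gabrd, interaction). With the marker term they were 0.041 (Gabra2, females), -0.11 (Gabra4, males), 0.054 (Gabrb1, mean) and -0.21 (Gabrd, males). Without single libraries the ranges that crossed 0 were -0.038 to 0.020 (Gabra2, females), -0.0067 to 0.13 (Gabra2, males), -0.0043 to 0.066 (Gabra2, mean), -0.18 to 0.014 (Gabra3, females), -0.090 to 0.050 (Gabra4, females), -0.098 to 0.078 (Gabra4, males), -0.054 to 0.036 (Gabra4, mean), -0.048 to 0.031 (Gabrb1, mean), -0.049 to 0.035 (Gabrb2, male minus female, High Activity) and -0.17 to 0.18 (Gabrd, males). With the longest transcript as length, the shares of the summed level were 14.9% for Gabra4, 31.3% for Gabra5, 6.31% for Gabrb1 and 13.5% for Gabrb2. No paired analysis was possible because the library numbers run from 1 to 16 and the groups share none of them. With 4 mice a group, the standard error of a strain difference within a sex was 0.07 to 0.16 on the log2 scale for the 7 genes.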
